A study of Mus musculus with 8 samples.

Results

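Heat shock proteins and DnaJ proteins are the molecular chaperones of the cell. The genes described here are those whose mouse symbol marks them as members of the HSP90, HSP70, HSP110, small heat shock protein, HSP60 and HSP10 families or of the DnaJ (HSP40) classes A, B and C. The symbol rule finds 72 protein-coding genes in the RefSeq annotation of the mouse assembly GRCm38.p6. Of these, 65 had a probe on the array, and 55 of the 65 were above background and were tested, among 17301 genes tested in all. The 55 comprised 20 heat shock protein genes and 35 DnaJ genes. The other 7 genes (Dnajb5, Dnajb11, Dnajb14, Dnajc13, Dnajc21, Hspa1b and Hspb9) were not analysed here.

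The messenger RNA of haematopoietic stem and progenitor cells was measured on 8 one-colour arrays. In 4 cultures a retroviral (pRS) shRNA was directed against Pcgf1, which encodes a subunit of the Polycomb complex PRC1.1, and 4 cultures received a control shRNA in the same way. Each of 4 mice gave 1 culture to each group. All mice were Runx1 Δ/Δ and of mixed C57Bl/6 and 129SvJ strain, so this genotype of Runx1, a transcription factor of blood formation, is common to both groups. How and in which cells Runx1 was deleted, the age of the mice and the sequence of the shRNAs are not given in the sources used here. Femur and tibia marrow was depleted of lineage-positive cells and grown for 2 days in serum-free medium with IL-3 (10 ng/ml), SCF (50 ng/ml), IL-11 (100 ng/ml) and Flt3 ligand (100 ng/ml). Transduced cells were selected from 24 h onward in puromycin (5 µg/ml) for 36 h, and 400 ng of total RNA was labelled with Cy3.

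Chaperones of the HSP70 family bind exposed stretches of unfolded proteins and release them in a cycle driven by ATP. DnaJ proteins deliver substrates to HSP70 and start ATP hydrolysis, nucleotide exchange factors end the cycle, and HSP90 takes over late folding steps of kinases and steroid receptors. Heat shock factor 1 raises the inducible members under stress, and blood precursors use HSP70 during red cell maturation.

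All values are log2 signals relative to the 75th percentile of the array, so 0 is the level of that percentile, and changes are the Pcgf1 shRNA mean minus the control shRNA mean. A value can be compared between cultures but not between probes of different genes. The Pcgf1 transcript averaged −1.59 ± 0.17 with the Pcgf1 shRNA and −0.23 ± 0.18 with the control shRNA (SD, n = 4 each), which left 39.0% of the transcript (limma adjusted p = 0.0197). On the arrays 54.8% to 62.0% of the spots were well above background, and 0 were saturated. Of 12 stem and progenitor markers, 11 were above background on all 8 arrays. Of 4 B cell markers, 1 was above background on all 8 arrays and Pax5 and Ebf1 on 0. Of 3 T cell markers, 2 were above background on all 8 arrays and Cd3g on 0, and their sum was 0.381 to 0.550 with the Pcgf1 shRNA and 0.280 to 0.327 with the control shRNA. Of 6 stromal and endothelial markers, 3 were above background on all 8 arrays and Pdgfra and Cdh5 on 0. Sums are in linear units in which the 75th percentile is 1.

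No chaperone gene passed an adjusted p of 0.05 in either direction (0 of 55 in limma without a block), where 0.763% of all genes tested passed. At an unadjusted p under 0.05 there were 5 members (Dnajc10, Dnajc27, Hspa13, Hspa1a and Hspa2), or 9.09%, against 12.2% of all genes. With the mouse as a block 1 member, Dnajb3, was lower with the Pcgf1 shRNA (1.82%), against 2.42% of all genes called lower and 5.32% called in either direction. At an unadjusted p under 0.05 that fit held 9 members (16.4%), against 23.5% of all genes. These shares lie at or below the background.

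The chaperone genes as a group sat close to no difference. Their median log2 change was 0.01, with 32 members higher and 23 lower, and the median over all genes was 0.00. The quartiles of the members were −0.07 and 0.09, against −0.14 and 0.11 for all genes. The median size of a change, whatever its sign, was 0.0801 for the members and 0.124 for all genes. By mouse, the members' median difference was 0.06, 0.03, 0.07 and −0.06 in mice 1 to 4, and it was thus below 0 in mouse 4 and above 0 in the others; the medians of all genes were 0.04, 0.01, 0.00 and −0.05. The members varied less over the 8 arrays (median SD 0.147) than genes in general (median SD 0.199). This is a description with no test, and the genes were not matched for signal level.

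A missed threshold does not show that the levels were alike, so the intervals matter. Unless stated otherwise, intervals here and below come from the fit without a block, which leaves out the pairing by mouse. For 45 of the 55 members (81.8%) the 95% interval of the change lay within 1.5-fold in either direction, which holds for 67.2% of all genes. For 51 members (92.7%) it lay within 2-fold, against 88.2% of all genes. The genes behind these shares were likewise not matched for signal level. The 4 genes whose interval reached past 2-fold were Dnajb3, Hspa1a, Hspb1 and Hspb6. The same 4 were the members with a change of 1.5-fold or more (7.27%, against 6.57% of all genes), and all 4 were lower with the Pcgf1 shRNA. Among all genes, falls of this size were also more common than rises. The bins of log2 change that hold these 4, centred on −0.6, −0.8, −1 and −1.2, held 205, 106, 75 and 43 of all genes. Those centred on 0.6, 0.8, 1 and 1.2 held 144, 74, 28 and 15. Whether the members differ from all genes in direction was not tested.

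**Figure D1:**
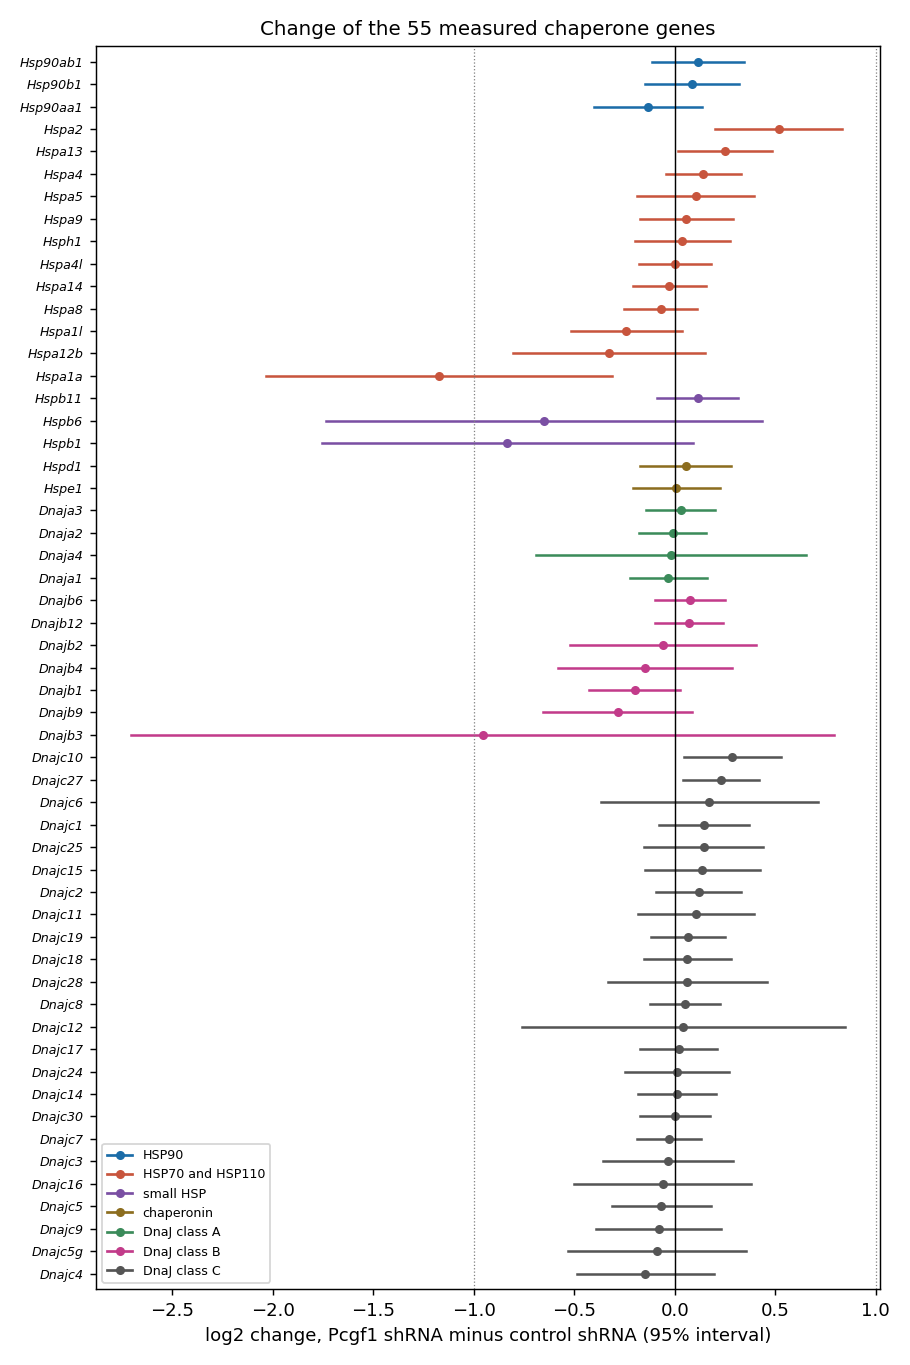
Log2 change (Pcgf1 shRNA minus control shRNA, horizontal axis) of each of the 55 tested chaperone genes, ordered by family, with its 95% interval from the fit without a block. Most intervals are short and cross 0, while those of Hspa1a, Hspb1, Hspb6 and Dnajb3 reach far to the left.

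**Figure D2:**
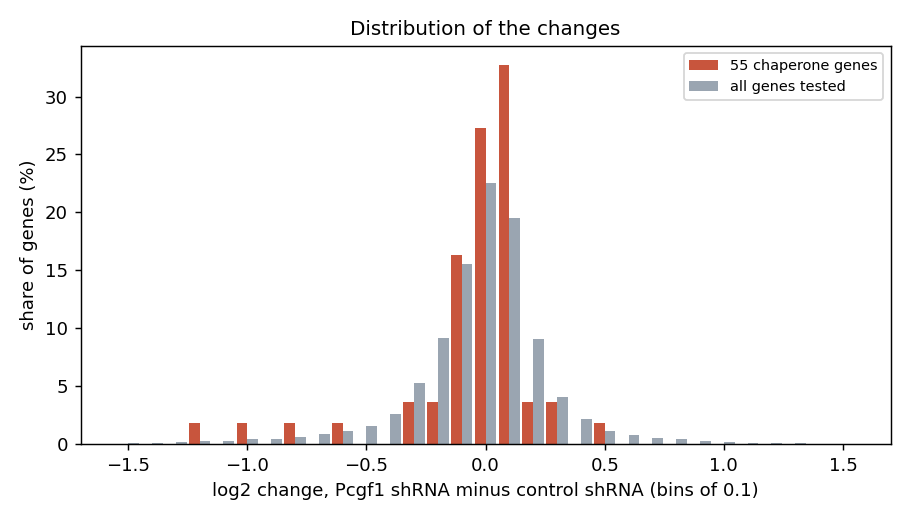
Share of genes (vertical axis, percent) by log2 change (horizontal axis) for the 55 chaperone genes and for all genes tested, with the axis limited to the central bins. Both distributions are centred near 0, and the outermost member on the left is Hspa1a at −1.17.

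The stress-inducible HSP70 gene Hspa1a had the widest difference of any member. Hspa1a, which encodes the HSP70 made on heat shock, read 3.72, 2.72, 1.75 and 2.65 in mice 1 to 4 with the Pcgf1 shRNA, and 4.00, 4.21, 3.92 and 3.40 with the control shRNA. The Pcgf1 shRNA culture was below its control in 4 of 4 mice, barely so in mouse 1 and most in mouse 3, and the groups overlapped through mouse 1. The mean was 2.71 ± 0.80 with the Pcgf1 shRNA and 3.88 ± 0.34 with the control shRNA (SD, n = 4 each). The log2 change was −1.17 (SE 0.38, 95% interval −2.04 to −0.31), 2.26-fold lower with the Pcgf1 shRNA, and did not pass (adjusted p = 0.257, or 0.0850 with mouse as a block).

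All 4 probes of the gene pointed the same way. The other 3 Hspa1a probes had changes of −1.13, −1.07 and −1.02. Mice 1 and 2, which shared a slide, gave a change of −0.89, and mice 3 and 4, on the other slide, gave −1.46. Leaving out 1 mouse at a time gave −0.84 to −1.47, and the direction was kept each time. Hspa1b, a near-identical neighbour in the same cluster, had no matched probe, so the Hspa1a probes may read both transcripts.

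Hspa1a lies on chromosome 17, 34969359 to 34972156, and runs in the direction opposite to Hspa1l, a testis HSP70 gene, with 546 bases between their starts. Hspa1l was dim and read −4.27 ± 0.06 with the Pcgf1 shRNA and −4.02 ± 0.23 with the control shRNA, a change of −0.24 (95% interval −0.52 to 0.03, adjusted p = 0.481). The promoters of 4 members are shown because heat shock factor 1 and the factors of endoplasmic reticulum (ER) stress are known to act through short elements there. Each is the stretch of 250 bases before the start that the RefSeq promoter table gives (GRCm38.p6), printed 5′ to 3′ along the gene, with matches in capitals. Hspa1a is taken from chr17:34972157-34972406 (minus strand), Hspe1 from chr1:55087898-55088147 (plus), Hspa5 from chr2:34771840-34772089 (plus) and Hspa2 from chr12:76404120-76404369 (plus). The Hspa2 window lies inside the annotated span of that gene (76403812 to 76406938), whose annotated start is thus another one. The capitals mark the short heat shock element (GAANNTTC or TTCNNGAA) in Hspa1a and Hspe1, and the ER stress element (CCAAT and CCACG with 9 bases between them, on either strand) in Hspa5.
Hspa1a: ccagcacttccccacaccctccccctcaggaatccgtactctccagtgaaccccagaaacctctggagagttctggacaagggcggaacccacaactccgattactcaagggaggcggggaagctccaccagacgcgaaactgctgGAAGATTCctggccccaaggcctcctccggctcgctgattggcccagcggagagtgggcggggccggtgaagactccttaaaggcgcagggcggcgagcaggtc
Hspe1: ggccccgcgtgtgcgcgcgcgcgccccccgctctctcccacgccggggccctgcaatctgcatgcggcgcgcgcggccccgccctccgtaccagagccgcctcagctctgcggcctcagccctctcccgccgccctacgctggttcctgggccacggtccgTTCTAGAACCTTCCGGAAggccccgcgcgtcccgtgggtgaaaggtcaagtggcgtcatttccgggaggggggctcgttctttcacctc
Hspa5: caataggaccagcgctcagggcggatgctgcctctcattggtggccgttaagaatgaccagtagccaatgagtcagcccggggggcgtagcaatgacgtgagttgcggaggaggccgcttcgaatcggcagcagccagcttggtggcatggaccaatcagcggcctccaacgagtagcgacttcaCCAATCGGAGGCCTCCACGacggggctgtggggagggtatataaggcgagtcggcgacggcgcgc
Hspa2: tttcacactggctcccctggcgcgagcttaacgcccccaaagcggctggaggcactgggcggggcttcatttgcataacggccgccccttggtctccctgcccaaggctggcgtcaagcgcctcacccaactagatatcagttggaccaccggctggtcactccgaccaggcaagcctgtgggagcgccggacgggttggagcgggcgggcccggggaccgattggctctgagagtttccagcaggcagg

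The Hspa1a window holds 1 short element, which begins 104 bases before the start. The Hspe1 window holds 3 overlapping matches that begin 89, 84 and 79 bases before the start. In the Hspa5 window the ER stress element begins 65 bases before the start. The Hspa2 window holds 0 matches to the short heat shock element. A match is a run of letters and not a measured binding site.

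Among the 51 members with a promoter in the sequence table, 13 (25.5%) hold the short heat shock element on either strand, as do 14.5% of 27025 genes and 12.8% of 32851 promoters of that length. Of the 12 that were tested, 6 were higher and 6 lower, with a median change of 0.00 and a range of −1.17 to 0.29. The 32 tested members without a match had a median of 0.01. The longer element (3 units, GAA and TTC by turns with NN between them, which contains the short one) was found in 0.466% of promoters and in 3 members, Dnajb6, Hspd1 and Hspe1, with values of 0.07, 0.05 and 0.01. The ER stress element was found in 0.113% of promoters and in the members Dnajc3, Hsp90b1 and Hspa5, whose changes were −0.03, 0.09 and 0.10. Members with the short heat shock element, and members with the ER stress element, were thus found on both sides of 0.

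The small heat shock proteins form oligomers that hold unfolded proteins without ATP. Hspb1 (HSP27) read −2.58, −3.51, −4.43 and −2.83 in mice 1 to 4 with the Pcgf1 shRNA, and −2.56, −2.19, −3.10 and −2.17 with the control shRNA. The within-mouse differences of −0.02, −1.32, −1.33 and −0.66 put mouse 1 near 0 and the other 3 mice clearly below it, and the groups overlapped. The change was −0.83 (SE 0.40, 95% interval −1.76 to 0.09, adjusted p = 0.464, or 0.101 with mouse as a block), and −0.47 after normexp background correction. With mouse as a block the interval was −1.41 to −0.26. Hspb6 (HSP20), a dim transcript here, differed by −0.65 on the strength of 1 control culture. It read −3.60, −3.63, −3.36 and −3.32 with the Pcgf1 shRNA, and −3.34, −1.19, −3.51 and −3.25 with the control shRNA. Without mouse 2 its change was −0.05. Hspb11, whose product IFT25 is known as a part of the intraflagellar transport machinery of cilia, differed by 0.11 (95% interval −0.09 to 0.32). Hspb2 and Hspb3 were above background on 0 arrays, Hspb7 on 1 Pcgf1 shRNA array and 2 control arrays, and Hspb8 on 3 arrays of each group.

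The other heat-inducible genes of the cytosol lay nearer to 0. Dnajb1, the DnaJ partner of inducible HSP70, read 5.17, 5.07, 4.95 and 5.22 with the Pcgf1 shRNA and 5.13, 5.36, 5.28 and 5.44 with the control shRNA. It was lower with the Pcgf1 shRNA in mice 2, 3 and 4 and level in mouse 1, with a change of −0.20 (95% interval −0.43 to 0.03, adjusted p = 0.476). Hsp90aa1, the inducible cytosolic HSP90, differed by −0.13 (−0.40 to 0.14). Hsph1, the HSP110 that exchanges nucleotide on HSP70, differed by 0.04 (−0.20 to 0.27), and Dnaja1, a class A partner of HSP70, by −0.03 (−0.22 to 0.16). With Hspa1a and Hspb1 included, these 6 genes had a median change of −0.17, 5 of them lower, and medians of 0.03, −0.29, −0.21 and −0.30 in mice 1 to 4. They were grouped by their known induction after their values had been seen, so the count is a description.

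Marker sums of several mature blood cells also differed between the cultures. The summed level of 8 erythroid markers, all above background on all 8 arrays, was 51.8 to 180 with the Pcgf1 shRNA and 118 to 247 with the control shRNA. Its log2 difference was 0.01, −1.06, −1.25 and −0.46 in mice 1 to 4, where that of Hspa1a was −0.28, −1.49, −2.17 and −0.75. The smallest difference of both was in mouse 1 and the largest in mouse 3. The same holds for the 5 eosinophil markers (4 above background on all 8 arrays), with sums of 2.07 to 4.92 with the Pcgf1 shRNA and 6.65 to 17.1 with the control shRNA and differences of −0.76, −1.78, −2.83 and −1.80. Sums of monocyte markers (differences −0.47, −0.59, −0.86 and −0.19) and megakaryocyte markers (0.21, −0.21, −0.68 and 0.23) were also lowest in mouse 3 relative to the control. Not all sums followed this order. Those of mast cell and basophil markers differed by −0.05, −0.17, −0.08 and 0.04, although the median change of the 6 genes was −0.70. Sums of cycling cell markers differed by 0.03, −0.00, −0.02 and −0.19. The summed level of the stem and progenitor markers was higher in 4 of 4 mice, by 0.34, 0.39, 0.45 and 0.23. Taken gene by gene, the 11 tested markers had a median change of −0.03. Of these, 1 was called higher without a block, and 2 higher and 1 lower with mouse as a block. Of all genes 0.763% were called in either direction without a block and 5.32% with it. The summed neutrophil markers (6 of 9 above background on all 8 arrays, Retnlg on 0) were 12.0 to 45.4 with the Pcgf1 shRNA and 85.3 to 234 with the control shRNA, with differences of −1.14, −2.23, −2.77 and −2.83. Without a block 2 neutrophil and 2 mast cell and basophil markers were called lower. With mouse as a block 7 of 8 tested neutrophil, 3 of 8 erythroid and 3 of 6 monocyte markers were called lower. So were 3 of 6 mast cell and basophil and 2 of 4 eosinophil markers, while 1 eosinophil marker was called higher. Of 5 megakaryocyte and 5 cycling cell markers 0 were called in either fit. The part of all these cells in the Hspa1a and Hspb1 values was not tested. In bulk RNA, fewer cells of a type and less RNA per cell cannot be told apart.

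**Figure D3:**
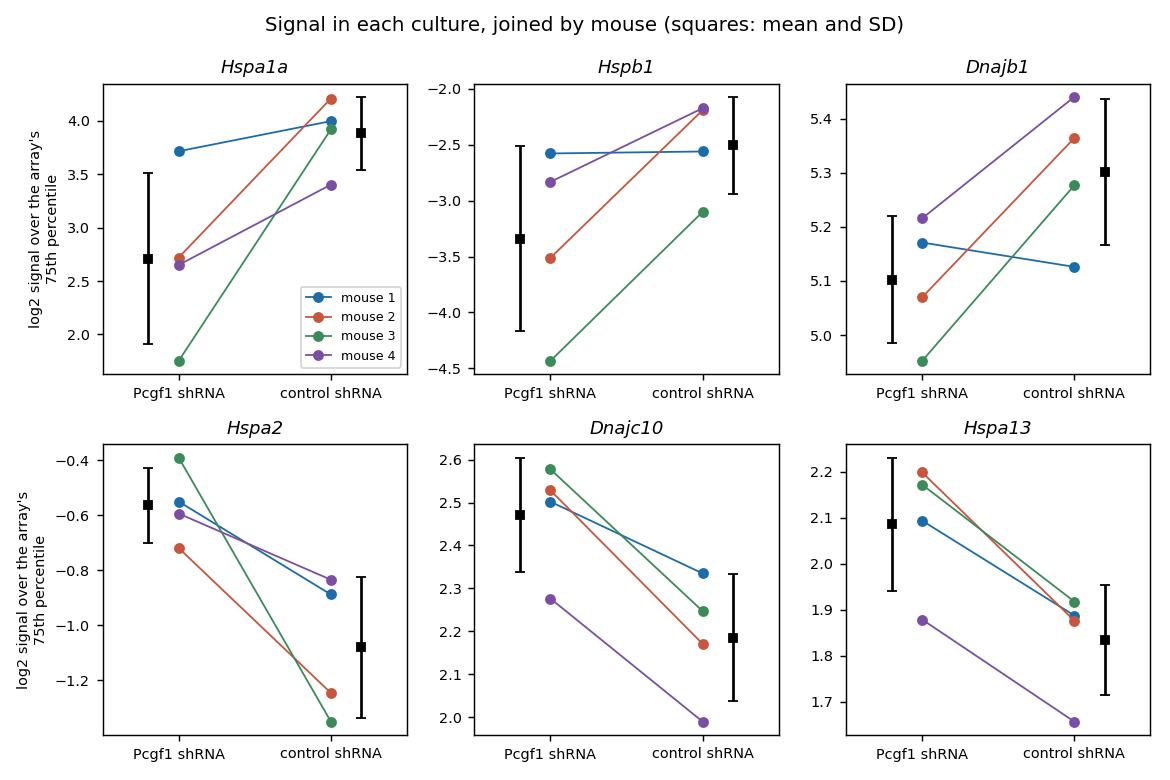
Log2 signal relative to the array's 75th percentile (vertical axis) of 6 chaperone genes in each culture, Pcgf1 shRNA left and control shRNA right, with a line joining the 2 cultures of a mouse and squares with bars for the mean and SD. Lines of Hspa1a slope in 1 direction in 4 of 4 mice but the groups overlap, while the Hspa2 groups do not overlap.

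In the fit without a block the member with the smallest p was Hspa2, an HSP70 of the testis that also occurs in other tissues. It read −0.55, −0.72, −0.39 and −0.59 in mice 1 to 4 with the Pcgf1 shRNA, and −0.89, −1.25, −1.35 and −0.83 with the control shRNA. Every Pcgf1 shRNA culture was above every control culture. The change was 0.52 (SE 0.14, 95% interval 0.20 to 0.83), or 1.43-fold higher with the Pcgf1 shRNA, and did not pass (adjusted p = 0.171, or 0.0809 with mouse as a block). Its second probe gave 0.51.

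Groups that do not overlap were found for 3 members above the control, Hspa2, Hspa4 and Dnajc27, and for 0 below it. This is 5.45% of the members above, against 4.25% of all genes above and 2.91% below. Hspa4, an HSP110 that exchanges nucleotide on HSP70, read 3.52, 3.58, 3.74 and 3.52 with the Pcgf1 shRNA and 3.46, 3.35, 3.50 and 3.48 with the control shRNA. The gap between the groups was narrow, and the change was 0.14 (95% interval −0.05 to 0.33, adjusted p = 0.547). Its other probes gave 0.13 and 0.22, and on each of them the groups overlapped. Dnajc27, a DnaJ protein with a Rab-like GTPase domain, read −0.36, −0.52, −0.30 and −0.47 in the Pcgf1 shRNA cultures and −0.59, −0.75, −0.61 and −0.63 in the control cultures. Its change was 0.23 (95% interval 0.04 to 0.42, adjusted p = 0.310, or 0.111 with mouse as a block). The other Dnajc27 probes gave 0.18 and 0.02, again with overlapping groups. In 4 of 4 mice 9 members were higher (16.4%, against 15.6% of all genes) and 4 were lower (7.27%, against 16.2%).

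The remaining HSP70 genes gave no call. Hspa8, the constitutive cytosolic HSP70, differed by −0.07 (95% interval −0.25 to 0.11), but its second probe gave 0.29, with control values between 6.24 and 7.46. The probes of Hspa8 thus disagreed in sign, as they did in 7 of the 27 members with more than 1 probe above background. Hspa4l, an HSP110 of the testis and other tissues, differed by 0.00 (−0.18 to 0.18), and Hspa14, which works at the ribosome, by −0.03 (−0.21 to 0.15). Hspa12b, a distant HSP70 relative known from endothelial cells, was dim and lower in 4 of 4 mice. Its change was −0.33 (−0.81 to 0.15, adjusted p = 0.591, or 0.0837 with mouse as a block), and −0.18 after normexp correction. With mouse as a block the interval was −0.53 to −0.12. Hspa12a was above background on 0 arrays.

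Of the HSP90 genes, the constitutive Hsp90ab1 read 7.57, 7.43, 7.37 and 7.19 with the Pcgf1 shRNA and 7.35, 7.34, 7.21 and 7.18 with the control shRNA. It was higher with the Pcgf1 shRNA in each mouse, by almost nothing in mouse 4, and the groups overlapped. The change was 0.12 (95% interval −0.11 to 0.35, adjusted p = 0.696).

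Chaperones of the ER fold secreted and membrane proteins. The master chaperone of that compartment, Hspa5 (BiP), read 6.43, 6.30, 6.32 and 5.89 with the Pcgf1 shRNA and 6.25, 6.14, 6.16 and 5.99 with the control shRNA. It was higher with the Pcgf1 shRNA in mice 1 to 3 and lower in mouse 4, with a change of 0.10 (95% interval −0.19 to 0.39). Hsp90b1 (GRP94) differed by 0.09 (−0.15 to 0.32). Dnajc10 (ERdj5), a disulphide reductase that works with BiP, read 2.50, 2.53, 2.58 and 2.28 with the Pcgf1 shRNA and 2.33, 2.17, 2.25 and 1.99 with the control shRNA. It was higher in 4 of 4 mice, and only the lower mouse 4 made the groups overlap. The change was 0.29 (SE 0.11, 95% interval 0.04 to 0.53, adjusted p = 0.327, or 0.0762 with mouse as a block), and its other 3 probes gave 0.34, 0.28 and 0.16.

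Hspa13, an HSP70 relative of the ER, read 2.09, 2.20, 2.17 and 1.88 with the Pcgf1 shRNA and 1.89, 1.88, 1.92 and 1.66 with the control shRNA. On this probe it was higher in each mouse by a like amount, and both cultures of mouse 4 were the lowest of their group. The change was 0.25 (95% interval 0.02 to 0.48, adjusted p = 0.375, or 0.0892 with mouse as a block), and 0.23 on the second probe. The second probe read 0.88, 0.87, 0.87 and 0.37 with the Pcgf1 shRNA and 0.88, 0.46, 0.38 and 0.36 with the control shRNA. On it mice 1 and 4 were nearly level, so the like amount in each mouse was not seen there. Dnajb9 (ERdj4), which is induced by the unfolded protein response, was lower with the Pcgf1 shRNA in mice 1 to 3, with −0.10, −0.44, −0.45 and −0.51 in the Pcgf1 shRNA cultures and 0.09, 0.01, 0.07 and −0.53 in the control cultures. Its change was −0.28 (−0.65 to 0.09, adjusted p = 0.541), and its other probes gave −0.18 and −0.25. With mouse as a block the interval was −0.55 to −0.02 (adjusted p = 0.192). Dnajc1 (ERdj1) differed by 0.15 (−0.08 to 0.37). The 7 members counted here as ER were grouped after their values had been seen, and the set may be incomplete. They had a median of 0.10 with 5 higher and 2 lower, and medians of 0.06, 0.18, 0.17 and 0.00 in mice 1 to 4.

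In the mitochondria HSP60 and HSP10 form a folding chamber, and mortalin pulls proteins through the inner membrane. The genes of the chamber, Hspd1 (HSP60) and Hspe1 (HSP10), run in opposite directions on chromosome 1 (55077833 to 55088243 and 55088148 to 55091317), and their annotated 5′ ends share 96 bases. Hspd1 read 7.04, 6.98, 7.05 and 6.72 with the Pcgf1 shRNA and 6.89, 7.01, 6.82 and 6.85 with the control shRNA, a change of 0.05 (95% interval −0.17 to 0.28). Hspe1 read 5.10, 4.97, 5.00 and 4.86 with the Pcgf1 shRNA and 4.92, 5.05, 4.81 and 5.12 with the control shRNA, a change of 0.01 (−0.21 to 0.23). Both genes were higher with the Pcgf1 shRNA in mice 1 and 3 and lower in mice 2 and 4. Hspa9 (mortalin) differed by 0.06 (−0.17 to 0.29). Dnajc15 and Dnajc19, DnaJ proteins of the import motor at the inner membrane, differed by 0.14 (−0.15 to 0.42) and 0.07 (−0.12 to 0.25). The 8 members counted here as mitochondrial were also grouped after their values had been seen, and this set may be incomplete too. All 8 had changes above 0, with a median of 0.06 and medians of 0.11, 0.03, 0.19 and −0.11 in mice 1 to 4.

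**Figure D4:**
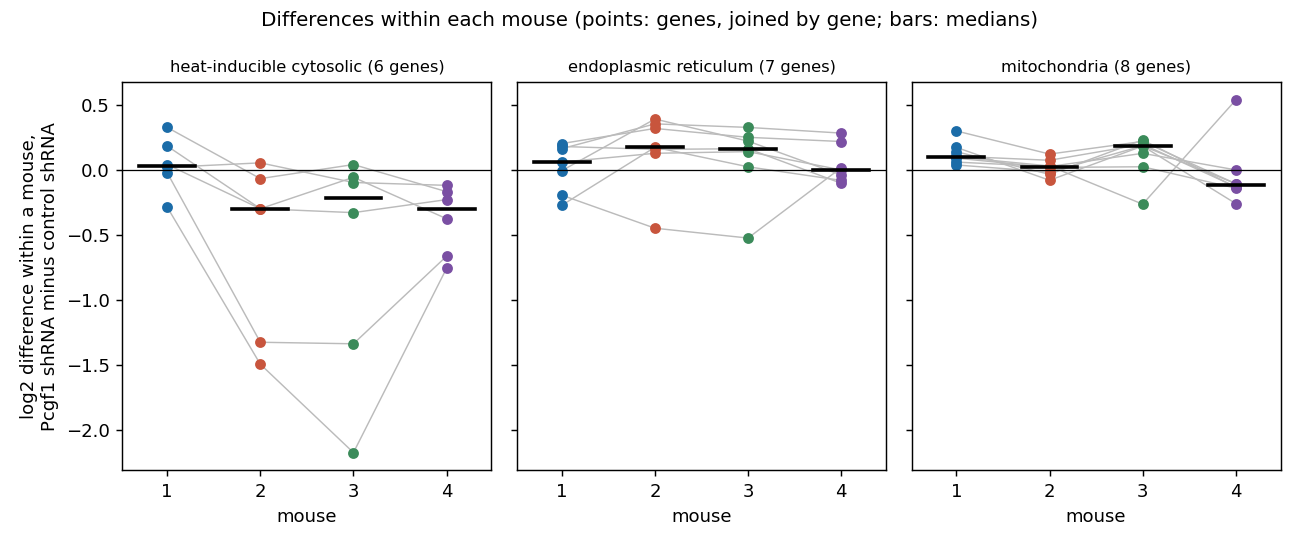
Within-mouse log2 differences (Pcgf1 shRNA minus control shRNA, vertical axis) for mice 1 to 4 in the heat-inducible cytosolic, ER and mitochondrial members, with 1 line per gene and black bars for the medians. Hspa1a and Hspb1 lie far below 0 in mice 2 and 3, and most ER and mitochondrial genes lie near 0.

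The 1 call with mouse as a block was Dnajb3, a DnaJ gene known from the testis. It read −4.46, −4.43, −5.80 and −2.64 in mice 1 to 4 with the Pcgf1 shRNA, and −4.00, −2.90, −4.70 and −1.90 with the control shRNA. Both cultures of mouse 4 were high and both of mouse 3 were low, and the Pcgf1 shRNA culture was below its control in 4 of 4 mice. The change was −0.96, with an SE of 0.76 and an adjusted p of 0.670 without a block, against an SE of 0.18 and an adjusted p of 0.0423 with mouse as a block. It was well above background on 3 of 4 Pcgf1 shRNA arrays and on 4 of 4 control arrays, so it entered the test through the group in which it is higher. Its Pcgf1 shRNA value in mouse 3 lies below the lowest signal called above background on that array (−5.65), so the size of that difference is uncertain. The call was lost when any 1 mouse was left out (block adjusted p of 0.0584 to 0.127), and the change was −0.40 after normexp correction.

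The remaining DnaJ genes gave no call in either fit. The 4 class A genes differed by −0.03 to 0.03 and the 24 class C genes by −0.15 to 0.29. Dnajb4, a cytosolic class B partner of HSP70, differed by −0.15 (95% interval −0.58 to 0.28). Dnajc25, a membrane DnaJ protein, differed by 0.14 (−0.15 to 0.44), and Dnajc6 (auxilin), which strips clathrin from vesicles with HSP70, by 0.17 (−0.37 to 0.71). Dnajc4 differed by −0.15 (−0.49 to 0.19) and Dnajc5g, above background on 4 Pcgf1 shRNA arrays and 2 control arrays, by −0.09 (−0.53 to 0.36). Dnajc8, known from splicing, and Dnajc9, a histone chaperone, differed by 0.05 (−0.12 to 0.23) and −0.08 (−0.39 to 0.23). Dnajb7, Dnajb8, Dnajb13 and Dnajc5b were above background on 0 arrays, and Dnajc22 on 1 Pcgf1 shRNA array.

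Some members differed between the mice, whichever shRNA the cells carried. Mice 1 and 2 shared a slide and scan batch and mice 3 and 4 the other. The mouse term thus also holds any difference between the slides. The mouse term passed an adjusted p of 0.05 for 3 of 55 members (5.45%), against 9.81% of all genes. Dnajc12, a partner of the aromatic amino acid hydroxylases, read 0.18, 0.91, −0.46 and 0.53 with the Pcgf1 shRNA and 0.19, 0.67, −0.52 and 0.66 with the control shRNA. Both cultures of mouse 2 were high and both of mouse 3 were low. Its mouse term had an adjusted p of 0.0169, while its change with the Pcgf1 shRNA was 0.04. The 95% interval of that change was −0.76 to 0.85 without a block and −0.17 to 0.25 with mouse as a block. The other members called were Dnajb3 (adjusted p of the mouse term 0.0164) and Hspa12b (0.0441). After normexp correction Hspa12b was not called.

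**Figure D5:**
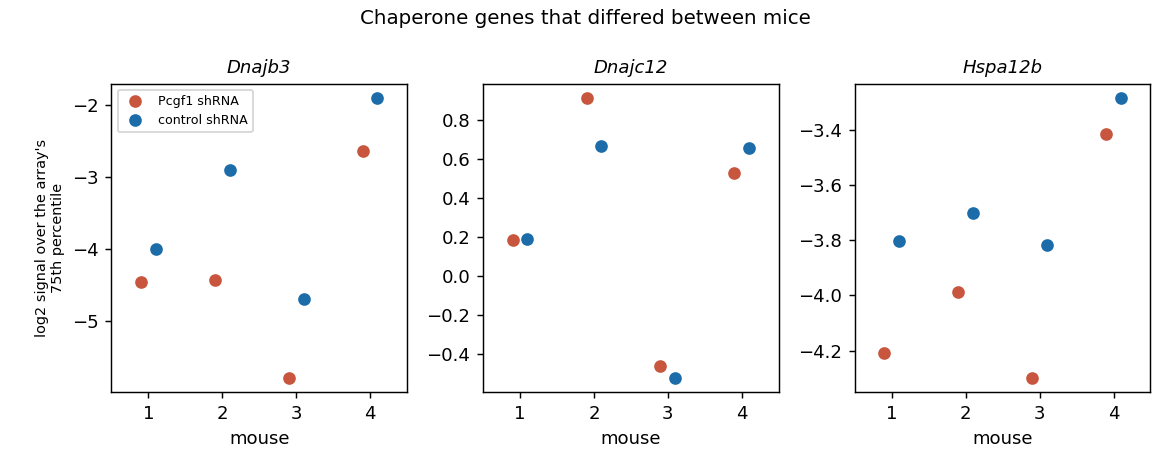
Log2 signal (vertical axis) of Dnajb3, Dnajc12 and Hspa12b, by mouse (horizontal axis), with the Pcgf1 shRNA and the control shRNA culture of each mouse as separate points. In Dnajc12 the 2 cultures of a mouse lie together, while the mice lie up to 1.28 apart in their means.

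The partners of the chaperones were read from 7 lists, in which 80 of 87 genes were tested and 1 passed (0.763% of all genes did, and 5.32% with mouse as a block), while 6 had an unadjusted p under 0.05 (12.2% of all genes did). That gene was Hsf4, a heat shock factor known for its role in the lens, with a fitted difference of 0.92 (SE 0.14, adjusted p = 0.0354, or 0.0221 with mouse as a block). It read −4.68, −4.43, −4.83 and −4.66 with the Pcgf1 shRNA and −5.85, −5.38, −5.33 and −5.72 with the control shRNA. The groups did not overlap, but the transcript was well above background on 4 Pcgf1 shRNA arrays and only 1 control array. It thus entered the test through the group in which it is higher, 3 of the 4 control values are not well above background, and with no filter on dim probes 0 genes were called. Hsf1, the main factor of the heat shock response, differed by 0.10 (95% interval −0.11 to 0.32, adjusted p = 0.714).

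Of 23 HSP90 co-chaperones, 0 passed in either fit, 19 were higher and 4 lower, and the median change was 0.12. Its medians were 0.20, 0.06, 0.16 and −0.06 in mice 1 to 4. The medians of all 7 lists were below 0 in mouse 4, where that of all genes was −0.05. Fkbp5, an immunophilin that binds HSP90 in steroid receptor complexes, differed by 0.49 (0.15 to 0.83, adjusted p = 0.228), and Ahsa2, related to an activator of the HSP90 ATPase, by 0.24 (0.02 to 0.47, adjusted p = 0.371). All 9 genes of the cytosolic chaperonin TRiC, which folds actin and tubulin, lay above 0 with a median of 0.12, and 0 passed; Cct8 differed by 0.14 (−0.03 to 0.30) and Tcp1 by 0.12 (−0.04 to 0.28). Of 11 nucleotide exchange factors of HSP70, 0 passed, with a median of 0.02. Bag2 differed by 0.40 (0.14 to 0.67, adjusted p = 0.208) and Bag3, which is itself heat-inducible, by −0.21 (−0.43 to 0.02, adjusted p = 0.462).

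Prefoldin, which hands unfolded actin and tubulin to TRiC, had a median of 0.03 over 6 genes, and 10 genes of mitochondrial protein quality control had a median of 0.01, with 0 calls in both. The 18 ER folding genes, 9 higher and 9 lower, had a median of −0.02 and 0 calls. Calr, the lectin chaperone calreticulin, differed by 0.32 (0.06 to 0.58, adjusted p = 0.297) and Ddit3 (CHOP), a transcription factor of the unfolded protein response, by −0.51 (−0.93 to −0.08, adjusted p = 0.325).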

How the data were processed

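Per the file headers, the deposited files hold spot intensity values from which background had been subtracted, not normalized between arrays, with flags for spots above background, saturated or non-uniform. Arrays were read with Agilent Feature Extraction 10.1, per the submitters' processing notes. A deposited table of the authors' own log2 values, centred per probe on the median over the arrays, was used as an alternative. Over 10070 bright probes its differences between arrays matched those used here (lowest r 1, lowest slope 0.999995). No member's change moved by more than 0.00666 with it. Agreement with that table was thus fixed in advance and is no separate support. Its column medians were 0.10, −0.05, −0.11 and −0.20 with the Pcgf1 shRNA and 0.05, 0.11, 0.10 and −0.13 with the control shRNA in mice 1 to 4.

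Processed intensities were converted to log2 and each array was shifted so that its 75th percentile (519 to 854 units, without control spots) was 0. Control spots and 242 non-uniform values were left out, and replicate spots were averaged. Of 41174 probes, 22747 were kept because all 4 arrays of either group flagged them well above background. Probes were named where their RefSeq accession was matched (24375 probes, GRCm38.p6), and the probe with the highest mean stood for a gene. The entries counted here as genes numbered 17302, and 17301 were tested. A gene symbol was available for only 11743. Entries lacking a symbol were counted too, so every share and median for all genes includes them.

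The main comparison used limma 3.58.1 in R 4.3.3 without a block, two-sided, with Benjamini-Hochberg adjustment over all genes tested. The fit with mouse as a block stands beside it. Cultures with the same number come from the same animal, and with group means removed they correlated across genes with r of 0.439, 0.481, 0.407 and 0.642. The highest r between cultures of different mice was 0.250. Over the members alone the r of mice 1 to 4 was 0.237, 0.100, 0.631 and 0.805, thus low in mice 1 and 2. The mouse term was tested by a moderated F test. Mice 1 and 2 shared 1 slide and scan batch and mice 3 and 4 the other, so each slide held both groups. The normexp alternative used the median spot and background signals, with an offset of 50. The procedure was tested on simulated data.

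The members, lists and tests were chosen with earlier results of these data known. Named were every measured heat shock protein gene, every DnaJ gene called in either fit, the 6 DnaJ genes with the highest mean, the 6 with the highest and the 6 with the lowest change, the 4 members with the smallest p of the mouse term, Pcgf1, and of each list the called genes and at most 2 more. The other DnaJ genes named were chosen after their values were seen. The 8 arrays limit the precision of every value.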

Additional observations from a re-analysis of the deposited data

Results flagged for a closer look

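In 7 of the 76 sets of 4 cultures examined, 1 culture stood far from the other 3 of its group. Distance was judged relative to the range of the set, so a small gap can count. For independent sets chance gives about 1 in 20. These sets share the same arrays, and some genes were named for their values, so that rate is only a rough guide. In 6 of the 7 the culture was from mouse 4. With the Pcgf1 shRNA, mouse 4 was low for Hsp90b1 (6.01, the others 6.30 to 6.33), Dnajc19 (4.61, the others 4.82 to 4.85) and Hspa4l (1.65, the others 1.72 to 1.73), and high for Dnajc6 (0.46, the others −0.09 to −0.05). With the control shRNA, mouse 4 was low for Dnajb9 (−0.53, the others 0.01 to 0.09) and Hspa13 (1.66, the others 1.88 to 1.92), and mouse 2 was high for Hspb6 (−1.19, the others −3.51 to −3.25).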

How the results depend on the processing

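No member was called higher in any alternative run, and none lower except 1 (Dnajb3) with mouse as a replicate block, which was lost without any 1 mouse (0 to 0 members in both directions when a mouse was left out). The members' median change was 0.01, between 0.00 and 0.07 in the other alternatives, and −0.01 without mouse 3. Between mice, 3 members differed, 5 after quantile normalization, 5 after normexp (without Hspa12b) and 0 with no filter on dim probes, where 32830 genes were tested. Of all genes, 132 were called (103 higher, 29 lower), 921 with the replicate block, 52 higher and 25 lower after normexp, and 0 with no filter or within either slide. Without mouse 1, 2 or 3 there were 1, 0 and 0 calls, and without mouse 4 there were 248 higher and 115 lower. With the block these were 128 higher and 156 lower, 0, 177 and 129, and 118 and 27. The Pcgf1 call was lost with no filter (adjusted p = 0.103), within each slide, without mouse 1 (0.113), 2 (0.352) or 3 (0.0904), and with the block without mouse 2 (0.0896). Its change stayed between −1.09 and −1.40. Hspa8 was 0.11 as a mean over its probes. The replicate block changed no other call named here. The cause of these shifts was not tested.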
